A study of Mus musculus with 11 samples.

Results

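Plac8, C2cd4b, 5830405F06Rik and Bend4 are 4 of the 32469 gene symbols whose reads were counted in precursor exhausted CD8+ T cells of mouse tumors. They were chosen from the comparison of anti-LAG-3 treated with untreated mice itself. Plac8, C2cd4b and 5830405F06Rik had been called in earlier fits only under some filters on low counts or with 1 library left out, and Bend4 had been picked for how far its estimate moved on leaving out a library. In the fits given here, leaving out 1 library moved the log2 fold changes of 5830405F06Rik and C2cd4b further than that of Bend4. The values below that come from this comparison are therefore a description of how the 4 genes behaved, and they support nothing about the antibody.

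The cells came from female C57BL/6 mice of wild-type genotype, 8 weeks old, that carried Lewis lung carcinoma (LLC) tumors, grown from a mouse lung carcinoma line, in both flanks. Of the 11 mice, 6 received 200 µg of the LAG-3 blocking antibody clone C9B7W on day 14 and again on day 16 of tumor growth, and 5 were left untreated. No control antibody is named for the untreated mice. The sorted cells were CD8+PD-1+Ly108+TIM-3-CD62L-, a gate for precursor exhausted cells, and each mouse gave 1 library, numbered 1 to 5 in the untreated and 6 to 11 in the anti-LAG-3 group. The methods of the study give day 18 for the later tumor excision, whereas the deposited description gives day 21.

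LAG-3 is an inhibitory receptor on exhausted T cells, and precursor exhausted cells are the self-renewing pool from which terminally exhausted cells arise. The 4 genes have no common function. Plac8 encodes a small cysteine-rich protein found in many leukocytes, C2cd4b encodes a nuclear protein of the C2CD4 family known from endothelium and pancreatic islets, and Bend4 encodes a protein with a BEN domain, a fold that binds DNA or other chromatin proteins. 5830405F06Rik is annotated as a long noncoding RNA gene that lies among the variable (V) gene segments of the T cell receptor beta locus, which are joined to D, J and constant segments to make the beta chain of the receptor.

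The total count of a library lay between 317449 and 1271063 for untreated and between 313524 and 1901374 for anti-LAG-3 mice. Levels are given as CPM, the reads of a gene per 1000000 reads of its library after scaling by the trimmed mean of M values (TMM), with exact Poisson 95% intervals that cover counting error only, since the PCR-amplified reads carry no molecular identifiers. A floor of 3 reads corresponded to 1.58 to 9.57 CPM, depending on the library. Sums over marker genes are given as CPM of the total count without TMM scaling. All 6 CD8 T cell markers passed the filter on low counts, and their summed level lay between 4846 and 5141 CPM in the untreated and between 4880 and 5388 CPM in the anti-LAG-3 libraries. Cd4 and Foxp3, which define CD4 and regulatory T cells, had at most 1 read in any library. The 5 CD4 T cell markers together summed to 317 to 351 CPM and 344 to 410 CPM in these groups, the 6 markers of naive or CD62L+ T cells to 2220 to 2659 CPM and 1826 to 2703 CPM, and the 5 NK cell markers to 231 to 314 CPM and 201 to 329 CPM. Most reads of the CD4 list were of Ctla4 and most of the NK list of Klre1, while Klra8 had 0 reads in all libraries. The sums of the 7 fibroblast and endothelial markers were 137 to 201 CPM and 148 to 214 CPM. Most of these reads were of Pecam1, with means of 170 and 175 CPM, and every other gene of that list had at most 5 reads in a library. The sums of the 4 epithelial or tumor markers were 2.45 to 12.6 CPM and 2.36 to 9.61 CPM. The 6 precursor exhausted markers summed to 1780 to 2219 CPM in the untreated and to 1671 to 2145 CPM in the anti-LAG-3 libraries. In bulk RNA, fewer cells of a type and less RNA per cell cannot be told apart.

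Plac8, on the minus strand of chromosome 5 from 100553725 to 100572245 (GRCm38), had the highest mean level of the 4 genes in both groups. In anti-LAG-3 replicates 10 and 11, 5830405F06Rik was above it, at 568 and 360 CPM. The counts of Plac8 were 613, 185, 457, 257 and 331 in untreated replicates 1 to 5, which corresponds to 479, 579, 387, 627 and 592 CPM. In anti-LAG-3 replicates 6 to 11 its counts were 415, 895, 146, 343, 79 and 131, or 375, 467, 328, 405, 254 and 314 CPM. The groups overlapped, because untreated replicate 3 lay below anti-LAG-3 replicates 7 and 9, and the other 4 untreated libraries lay above all anti-LAG-3 libraries. The mean was 533 ± 98.1 CPM (SD, n = 5) in the untreated and 357 ± 74.8 CPM (SD, n = 6) in the anti-LAG-3 mice, and the fitted log2 fold change was -0.51 (standard error 0.12).

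Counting error was a small part of the spread of Plac8. The interval of the library with the fewest Plac8 reads, anti-LAG-3 replicate 10, ran from 201 to 316 CPM, and that of the deepest, replicate 7, from 437 to 499 CPM. Within the groups, the Pearson chi-square of the counts reached 14.5 per degree of freedom for the untreated and 10.7 for the anti-LAG-3 libraries, against medians of 1.27 and 1.43 over the 6949 genes that passed the filter. This statistic grows with the count of a gene, and Plac8 exceeded 99.5% of these genes in the untreated and 97.9% in the anti-LAG-3 group. None of its 1556 distinct 50-base stretches occurs in a transcript of another gene, so its reads are not shared with another annotated gene over such a length. The 6 markers of terminally exhausted cells, of which 3 passed the filter, summed to 270 to 479 CPM in the untreated and 211 to 312 CPM in the anti-LAG-3 libraries, with 0 to 7 reads of Havcr2, the gene of TIM-3. The library highest in that sum, untreated replicate 4, was also the highest for Plac8, and the part of these cells in its level was not tested.

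The distance of Plac8 between the groups differed with the depth of the libraries, in depth classes chosen after the values were seen. In the libraries with over 1000000 counts, both untreated libraries, at 479 and 387 CPM, lay in the same range as both anti-LAG-3 libraries, at 375 and 467 CPM, a log2 ratio of the means of -0.04. In the libraries with under 500000 counts, the 2 untreated ones had 579 and 627 CPM and the 3 anti-LAG-3 ones 254 to 328 CPM, a log2 ratio of -1.01. The only pair in between had 592 CPM without and 405 CPM with the antibody. Depth moved with the primer barcode in the library names, since 5 of the 6 libraries with barcode 9 hold over 566144 counts, the median depth, and the sixth holds exactly that median. Within barcode 9 the 3 untreated libraries averaged 486 CPM and the 3 anti-LAG-3 libraries 416 CPM, a log2 ratio of -0.23, whereas with barcode 8 a single untreated library at 627 CPM stood against 3 with a mean of 299 CPM. With barcode 9 alone, the fitted log2 fold change was -0.20 (standard error 0.13). Barcode 10 holds 1 untreated library only, so it gives no comparison, and depth and barcode cannot be told apart in these libraries.

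**Figure D1:**
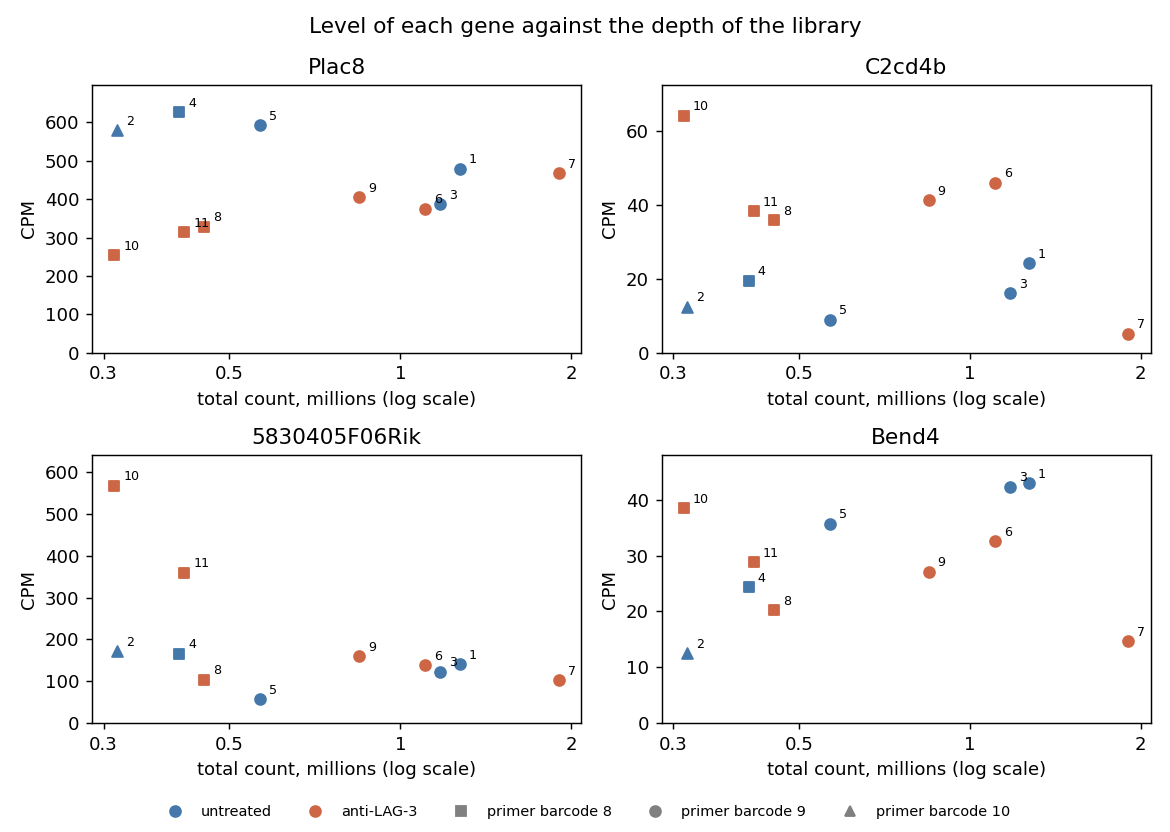
Level of each gene in CPM (y axis) against the total count of the library in units of 1000000 reads (x axis, log scale), with untreated libraries in blue, anti-LAG-3 libraries in orange, the marker shape giving the primer barcode and the number the replicate. For Plac8 the groups lie apart in the libraries under 500000 counts, at 579 and 627 against 254 to 328 CPM, and side by side in those over 1000000 counts.

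C2cd4b, on chromosome 9 from 67759437 to 67760930, had far fewer reads. Its counts were 31, 4, 19, 8 and 5 in untreated replicates 1 to 5, or 24.2, 12.5, 16.1, 19.5 and 8.94 CPM. In anti-LAG-3 replicates 6 to 11 they were 51, 10, 16, 35, 20 and 16, or 46.1, 5.22, 35.97, 41.3, 64.2 and 38.4 CPM. The groups overlapped only through anti-LAG-3 replicate 7, the deepest library, whose level was below that of all 5 untreated libraries. Its interval, from 2.50 to 9.59 CPM, does not reach the interval of any other anti-LAG-3 library, of which the lowest starts at 20.6 CPM. The mean was 16.3 ± 5.95 CPM (SD, n = 5) in the untreated and 38.5 ± 19.2 CPM (SD, n = 6) in the anti-LAG-3 mice, and 45.2 ± 11.3 CPM (SD, n = 5) without replicate 7. The fitted log2 fold change was 0.94 (standard error 0.40) and became 1.32 (standard error 0.25) without that library. A fit of all libraries with limma voom gave 0.26 (standard error 0.59). By depth, the log2 ratio of the C2cd4b means was 1.53 under 500000 counts, 2.21 in the single pair in between and 0.35 over 1000000 counts, where replicate 7 is 1 of 2 anti-LAG-3 libraries. With the libraries of barcode 9 alone, the fitted value was 0.63 (standard error 0.53).

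Among the untreated libraries, C2cd4b varied little more than counting alone gives, with a chi-square of 1.54 per degree of freedom. In the anti-LAG-3 libraries the value was 13.5, above that of 98.7% of the genes tested. Without replicate 7 the groups did not overlap, which was true of 66 of 6389 genes in the same 10 libraries, or 1.03%. With all libraries none of the 4 genes was without overlap, and 33 of 6949 genes (0.475%) were. The 10 myeloid markers summed to 105 CPM in replicate 7, lowest for C2cd4b, and to 134 CPM in replicate 10, highest for C2cd4b, against 46.7 to 97.7 CPM in the untreated libraries, and the other 4 anti-LAG-3 libraries lay within that range at 55.3 to 82.0 CPM. The B cell markers, with 1 to 17 reads in a library and none past the filter, summed to 1.77 to 5.10 CPM in the untreated and 4.81 to 12.8 CPM in the anti-LAG-3 libraries, highest in replicates 10 (12.8 CPM) and 7 (8.94 CPM). The part of such cells in these levels was not tested. At the depth of the shallowest library the 10 reads of replicate 7 would correspond to 1.65 reads and the 51 reads of replicate 6 to 14.5.

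The row of C2cd4b is uncertain in its origin, because 638 of its 1278 distinct 50-base stretches (49.9%) are shared with at least 1 other gene. Of these, 531 lie in M5C1000I18Rik, a noncoding RNA gene on the opposite strand whose exons cover 627 bases of C2cd4b, and 107 lie in its paralog C2cd4a, found 69558 bases away on the same chromosome. Whether strand was used in counting, and how reads that fit several genes were treated, is not given in the sources used here. M5C1000I18Rik had 0 to 3 and C2cd4a 0 to 4 reads in a library, so that both rows were far below C2cd4b in most libraries. The longest stretch in common with C2cd4a, 104 bases of coding sequence at chr9:67760330-67760433, is shown in capitals to mark where reads of the paralogs are identical. The whole sequence printed spans chr9:67760310-67760453 (GRCm38, plus strand, from the GENCODE M21 transcripts).
C2cd4b: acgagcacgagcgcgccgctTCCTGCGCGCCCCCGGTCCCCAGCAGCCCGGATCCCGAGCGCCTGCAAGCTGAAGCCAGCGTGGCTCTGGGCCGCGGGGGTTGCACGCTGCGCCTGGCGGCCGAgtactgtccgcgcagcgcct

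5830405F06Rik, on the plus strand of chromosome 6 from 41055883 to 41063102, spans the V genes Trbv4 (41059394 to 41059886) and Trbv5 (41062332 to 41062803), which lie on the same strand. In its transcript 5830405F06Rik-202, exon 3 starts at the first base of exon 2 of Trbv4, the exon that encodes most of the V region, and exon 4 starts at the first base of exon 2 of Trbv5. The exons of 5830405F06Rik share 295 bases with Trbv4 and 292 bases with Trbv5, and 495 of the 2298 distinct 50-base stretches of the noncoding RNA (21.5%) occur in these V genes. The sequences are shown because a read of a beta chain with either V segment has the same letters as a read of this noncoding RNA there. The capitals mark bases 41059592 to 41059641 and 41062512 to 41062581, which begin the V exons and which transcript 5830405F06Rik-202 joins directly. The lower-case start of the noncoding transcript is the end of its second exon (41058700 to 41058729), and the sequences are read 5′ to 3′ from the GENCODE M21 transcripts.
5830405F06Rik-202: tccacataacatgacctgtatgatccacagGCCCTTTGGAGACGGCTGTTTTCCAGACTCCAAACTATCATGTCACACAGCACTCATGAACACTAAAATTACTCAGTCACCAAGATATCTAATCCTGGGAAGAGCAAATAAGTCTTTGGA
Trbv4, chr6:41059592-41059691: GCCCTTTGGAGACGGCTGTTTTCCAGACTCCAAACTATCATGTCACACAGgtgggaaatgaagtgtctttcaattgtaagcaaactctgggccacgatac
Trbv5, chr6:41062512-41062631: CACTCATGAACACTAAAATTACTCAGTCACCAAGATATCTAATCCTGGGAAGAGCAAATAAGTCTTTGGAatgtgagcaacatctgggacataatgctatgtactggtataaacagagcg

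The counts of 5830405F06Rik were 180, 55, 145, 68 and 32 in untreated replicates 1 to 5, or 141, 172, 123, 166 and 57.2 CPM. In anti-LAG-3 replicates 6 to 11 they were 153, 195, 46, 135, 177 and 150, or 138, 102, 103, 159, 568 and 360 CPM. Replicates 10 and 11 stood above all other libraries, and the other 4 anti-LAG-3 libraries lay within the range of the untreated ones. The mean was 132 ± 46.1 CPM (SD, n = 5) in the untreated and 239 ± 188 CPM (SD, n = 6) in the anti-LAG-3 mice, and 126 ± 28.0 CPM (SD, n = 4) without replicates 10 and 11. The fitted log2 fold change of 0.71 (standard error 0.33) became -0.03 (standard error 0.19) without both, so that its direction turned. The difference also varied between depth classes and primer barcodes. In the libraries over 1000000 counts the log2 ratio of the 5830405F06Rik means was -0.13, in those under 500000 counts it was 1.03, and in the single pair in between, at 57.2 and 159 CPM, it was 1.48, so that it did not follow depth in order. The fitted log2 fold change was 0.43 (standard error 0.29) with the barcode as a covariate and 0.21 (standard error 0.22) with the libraries of barcode 9 alone. Replicates 10 and 11 both carry barcode 8 and have under 500000 counts.

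The chi-square of 5830405F06Rik was 90.3 per degree of freedom among the anti-LAG-3 libraries and exceeded that of 99.96% of the genes tested. Its own dispersion was above that of 99.94% of the genes over both groups. Set against the reads of the constant genes Trbc1 and Trbc2, which every beta chain transcript carries, 5830405F06Rik had 4.19 to 19.2 reads per 100 in the untreated libraries. In the anti-LAG-3 libraries this ratio was 12.4, 8.43, 7.94, 15.4, 60.4 and 28.4 in replicates 6 to 11. The constant genes themselves summed to 1160 ± 209 CPM (SD, n = 5) in the untreated and to 1144 ± 140 CPM (SD, n = 6) in the anti-LAG-3 libraries, and replicates 10 and 11 had 941 and 1268 CPM. Reads of the noncoding RNA and of V segments in receptor transcripts cannot be told apart from these counts, and the V genes were not analysed here.

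Anti-LAG-3 replicate 10 was also the shallowest library, and other measures stood high in it. Ccl1, which encodes a chemokine that binds CCR8 and was the other gene called with no filter, had 511 CPM in replicate 10 and 41.1 to 130 CPM in the other libraries. The 10 myeloid markers summed to 134 CPM there, the highest value, against 46.7 to 97.7 CPM in the untreated libraries, with S100a8 and S100a9 at 0 reads in all libraries. The antibody panel listed by the study has an exclusion channel for CD11b, B220, NK1.1 and TER119. That panel names no antibody to CD62L, and whether it was the one used for these CD62L- cells is not stated. In replicate 11 the same sum was 55.3 CPM. The part of these cells in the level of 5830405F06Rik was not tested.

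Bend4, on the minus strand of chromosome 5 from 67392147 to 67428310, belongs to the expansion signature that the study built from its single-cell data. Its counts were 55, 4, 50, 10 and 20 in untreated replicates 1 to 5, or 43.0, 12.5, 42.4, 24.4 and 35.7 CPM. In anti-LAG-3 replicates 6 to 11 they were 36, 28, 9, 23, 12 and 12, or 32.5, 14.6, 20.2, 27.1, 38.5 and 28.8 CPM. The groups overlapped over most of their range, and the lowest libraries were the shallow untreated replicate 2 and the deepest library, anti-LAG-3 replicate 7. With 4 reads, the interval of untreated replicate 2 ran from 3.41 to 32.1 CPM and overlapped the intervals of untreated replicates 3, 4 and 5. The mean was 31.6 ± 13.0 CPM (SD, n = 5) in the untreated and 27.0 ± 8.56 CPM (SD, n = 6) in the anti-LAG-3 mice.

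For Bend4 the size of the difference depended on how the libraries were weighted. The log2 ratio of the mean levels was -0.23, whereas the fitted log2 fold change, in which deep libraries count for more, was -0.50 (standard error 0.26). In the libraries over 1000000 counts the untreated ones, at 43.0 and 42.4 CPM, were above the anti-LAG-3 ones, at 32.5 and 14.6 CPM, with a log2 ratio of -0.86. In those under 500000 counts the order was the opposite, with means of 18.5 CPM in 2 untreated and 29.2 CPM in 3 anti-LAG-3 libraries, a log2 ratio of 0.66. The counts there were 4 to 12, so that the intervals of these 5 libraries overlap. With the libraries of barcode 9 alone, the fitted log2 fold change of Bend4 was -0.81 (standard error 0.27). Bend4 is a long transcript set of 9886 exonic bases, and 3.52% of its 50-base stretches occur elsewhere, most of them in Gm42632 and Gm26756 on the opposite strand.

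**Figure D2:**
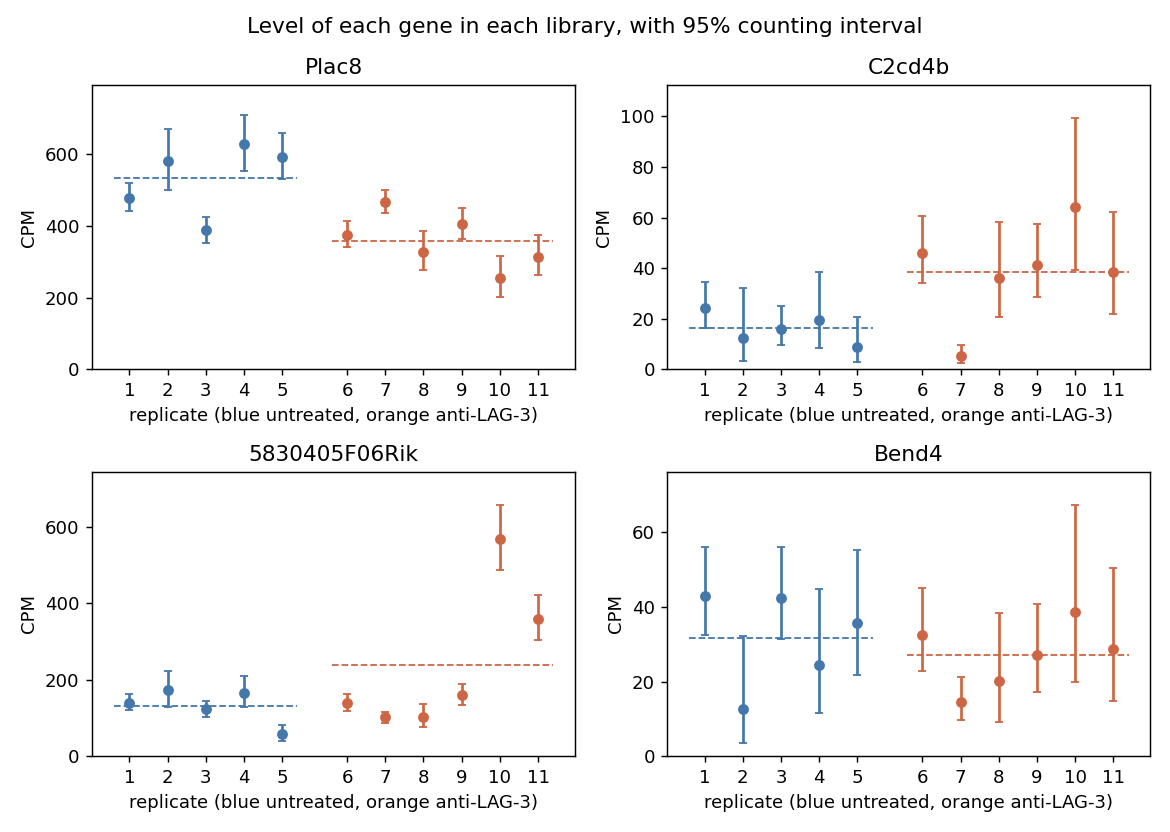
Level of each gene in CPM (y axis) in each library (x axis, replicates 1 to 5 untreated in blue, 6 to 11 anti-LAG-3 in orange), with exact Poisson 95% intervals as bars and the group mean as a dashed line. Replicate 7 stands low for C2cd4b at 5.22 CPM and replicates 10 and 11 stand high for 5830405F06Rik at 568 and 360 CPM, whereas Bend4 overlaps between the groups.

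Per kilobase of exon, the order of the 4 levels was the same in both groups. Per the methods, sample barcodes were added at the template-switch end of the cDNA before fragmentation, so reads may not scale with exon length. By CPM alone, Bend4 averaged 31.6 and C2cd4b 16.3 in the untreated libraries, the reverse of their order per kilobase. Among the untreated libraries Plac8 had 335 ± 61.6, 5830405F06Rik 56.1 ± 19.7, C2cd4b 12.3 ± 4.48 and Bend4 3.20 ± 1.32 CPM per kilobase (SD, n = 5), and no neighbours in this order overlapped. In the anti-LAG-3 libraries the means were 224 ± 47.0 for Plac8, 102 ± 80.2 for 5830405F06Rik, 29.0 ± 14.5 for C2cd4b and 2.73 ± 0.866 for Bend4 (SD, n = 6). There the ranges of Plac8 and 5830405F06Rik overlapped, from 159 to 293 and from 43.3 to 242 CPM per kilobase, as did those of 5830405F06Rik and C2cd4b, whose highest library had 48.4.

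The calls of Plac8 and 5830405F06Rik with all libraries depended on the filter, whereas C2cd4b was called only without a library and Bend4 in no fit. The filter of the main fit asks for 17.7 CPM, 10 counts at the median depth, in at least 5 libraries. Plac8 and 5830405F06Rik reached that level in all 11 libraries, Bend4 in 9 and C2cd4b in 7, of which 2 were untreated. All 4 genes were thus tested with and without the filter, and what changed was the rest of the table. Plac8 would have passed with a minimum of up to 266 counts in place of 10 and 5830405F06Rik with up to 90, but C2cd4b only up to 20 and Bend4 up to 18.

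With the main filter, edgeR's quasi-likelihood test called 0 of 6949 genes at an adjusted p under 0.05 (0%), with 259 genes at an unadjusted p under 0.05, and DESeq2 also called 0, with 163. edgeR's likelihood ratio test and limma voom called 0 as well, with 307 and 317 genes. All 4 genes stood at an adjusted p of 0.999 in the quasi-likelihood test, and in the likelihood ratio test Plac8 stood at 0.425, C2cd4b at 0.945 and the other two at 0.997. In the order of the genes by unadjusted p of the quasi-likelihood test, Plac8 stood at position 1, C2cd4b at 144, 5830405F06Rik at 206 and Bend4 at 365. The positions of these genes were 2, 69, 176 and 846 in the likelihood ratio test and 17, 4600, 1630 and 182 with limma voom. With no filter beyond 1 read in any library, 3 of 24024 genes were called (0.0125%), of which 2 were 5830405F06Rik (adjusted p = 0.000163) and Plac8 (adjusted p = 0.00163), and Ccl1 was the last inside the threshold (adjusted p = 0.00398). The first gene outside was Gzma, the gene of granzyme A, with an adjusted p of 0.0559. C2cd4b (adjusted p = 0.555) and Bend4 (adjusted p = 0.722) were not called there.

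Between the fits with the main filter and with no filter, the log2 fold change of Plac8 moved from -0.51 to -0.49. That of 5830405F06Rik stayed at 0.71. The dispersion by which the test judged each difference fell for each gene. edgeR averages a gene's own quasi-likelihood dispersion with a trend over all genes, and the prior degrees of freedom set the weight of the trend. With the main filter these were 17.9, and 5830405F06Rik, whose own dispersion was 17.2, was tested with a dispersion of 6.29. With no filter they were infinite, so that the own dispersion got no weight, and the same gene, with an own value of 14.9, was tested with 0.821. Its standard error fell accordingly from 0.33 to 0.12. For Plac8 the own value was 2.82 and the value used fell from 1.41 to 0.744, for C2cd4b from 2.50 to 1.03, and for Bend4 from 1.26 to 1.02.

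The weight of the trend grew step by step as low genes were let in. The prior degrees of freedom were 13.6 with a minimum of 20 counts, 22.3 with 5, 24.97 with 3, 28.1 with 2 and 38.1 with 1, and the adjusted p of Plac8 in edgeR's test was 0.774 and 0.423 at the last 2 of these. With at least 10 counts over all libraries together they were 56.3, and Plac8 had an adjusted p of 0.19. With at least 5 counts in all they were 202.1, and Plac8 alone was called among 16882 genes (adjusted p = 0.00539), while 5830405F06Rik had an adjusted p of 0.154. The number of genes over which p was adjusted was also changed on its own. When the fit with no filter was adjusted over the 6949 genes of the main filter, 5 genes were called, among them 5830405F06Rik and Plac8 with adjusted p of 4.73e-05 and 0.000473.

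**Figure D3:**
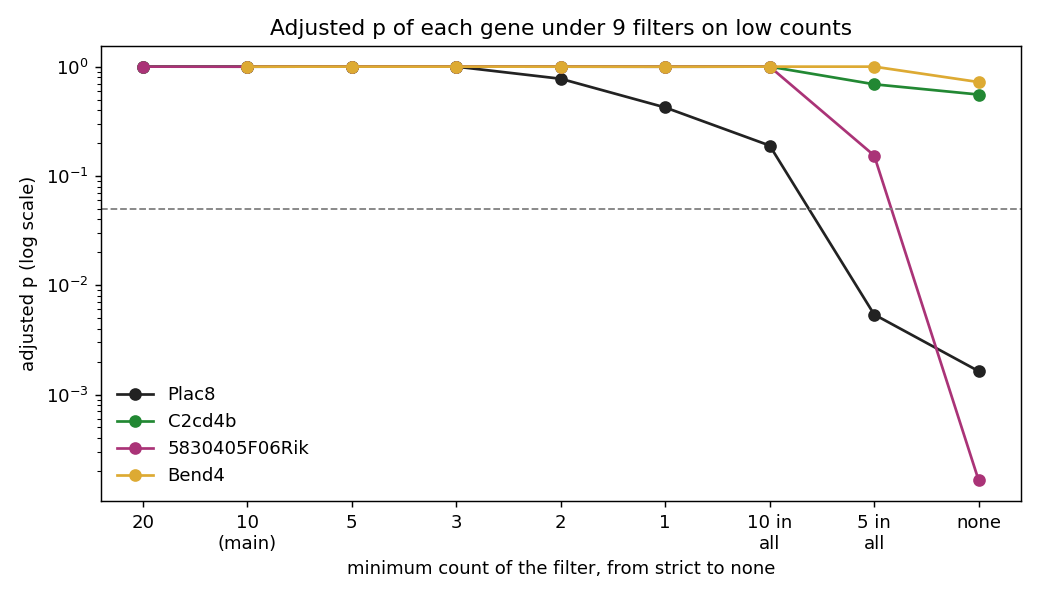
Adjusted p of each gene in edgeR's quasi-likelihood test (y axis, log scale) under 9 filters from a minimum of 20 counts to none (x axis), with the threshold of 0.05 dashed. Plac8 falls below the threshold with at least 5 counts in all and 5830405F06Rik with no filter only, whereas C2cd4b and Bend4 lie above it, Bend4 having no value at a minimum of 20.

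**Figure D4:**
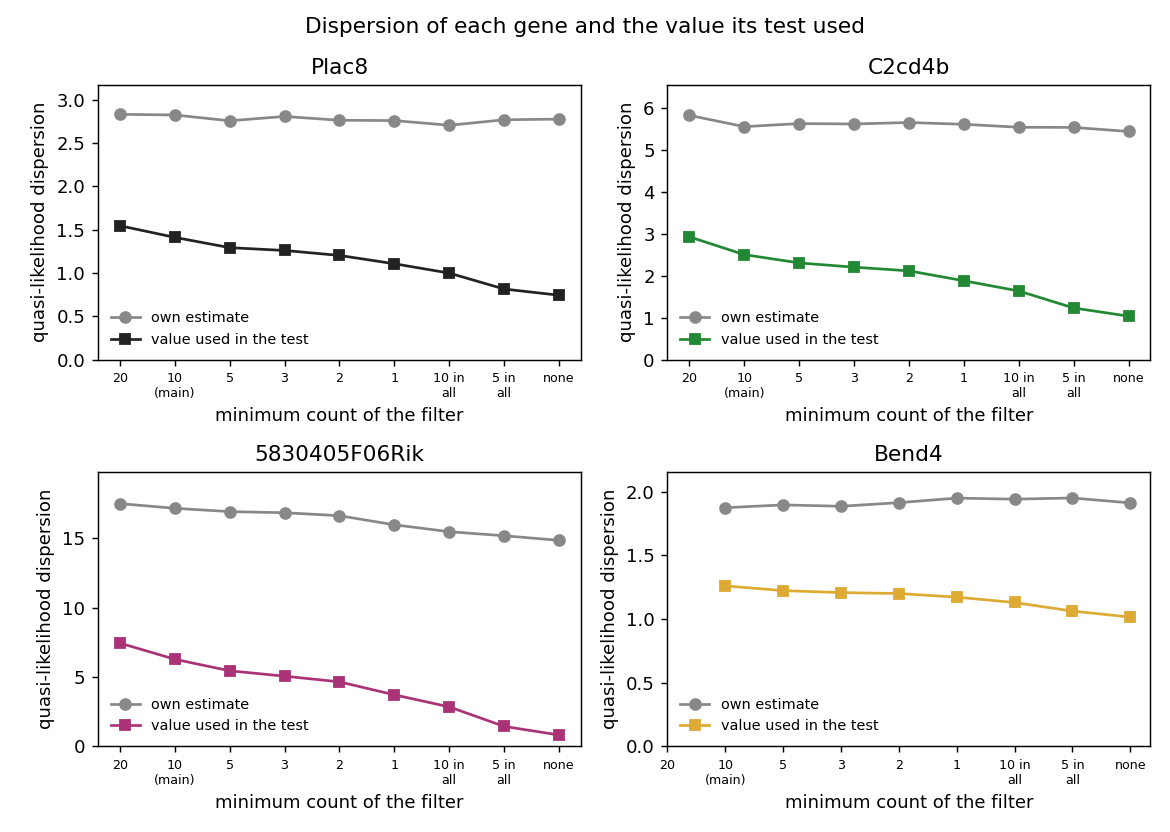
Quasi-likelihood dispersion of each gene (y axis, without unit) under the same 9 filters (x axis), as the gene's own estimate in grey and as the value used in the test in color. For 5830405F06Rik the own estimate goes from 17.5 at a minimum of 20 counts to 14.9 with no filter, while the value used falls from 7.45 to 0.821.

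The likelihood ratio test and DESeq2 left the 4 genes uncalled with no filter. edgeR's likelihood ratio test gave adjusted p of 0.582 for Plac8 and 0.728 for each of the other 3 genes, and its 2 calls among 24024 genes were B2m and mt-Co1, which were named after their values were seen. DESeq2 called 0 of 24024 genes, with 275 at an unadjusted p under 0.05, and gave all 4 genes an adjusted p of 0.999. The bias-adjusted quasi-likelihood method of edgeR called 3 of 24024 genes with no filter, among them Plac8 and 5830405F06Rik, both with an adjusted p of 0.00321. With the main filter it called 0 of 6949 genes, and Plac8 had an adjusted p of 0.777. With the robust option, which lets genes of high dispersion keep more of their own value, 5830405F06Rik was tested at 16.6 and C2cd4b at 5.01 under the main filter, and the standard error of 5830405F06Rik rose to 0.54.

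Leaving out a library changed which genes were called. With the main filter recomputed each time, 10 of 11 such fits called 0 genes in edgeR's quasi-likelihood test, with 225 to 340 genes at an unadjusted p under 0.05. Without anti-LAG-3 replicate 7, 2 of 6389 genes were called (0.0313%), C2cd4b and Plac8, both with an adjusted p of 0.0437 in the same edgeR test, and the first gene outside was Itgb3 with 0.306. For C2cd4b the own dispersion fell from 5.55 to 0.985 without that library, and the value used from 2.50 to 0.993. For Plac8 the log2 fold change moved from -0.51 to -0.61, while the prior degrees of freedom rose to 22.9.

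With no filter, Plac8 was called in 10 of the 11 fits with a library left out, the exception being the fit without replicate 10, which called 0 genes, with 1076 at an unadjusted p under 0.05, and where Plac8 had an adjusted p of 0.0691. 5830405F06Rik was called in 8, and not without untreated replicate 5 (adjusted p = 0.351), its lowest library, nor without anti-LAG-3 replicate 10 (adjusted p = 0.704) or 11 (adjusted p = 0.227), its highest. C2cd4b was called without replicate 7 alone (adjusted p = 0.000885), and Bend4 in none. The log2 fold change of 5830405F06Rik under the main filter ranged from 0.32 without replicate 10 to 0.91 without replicate 7. That of Bend4 ranged from -0.63 without replicate 6 to -0.28 without replicate 7, and it was -0.36 without untreated replicate 1, the deepest of its group.

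**Figure D5:**
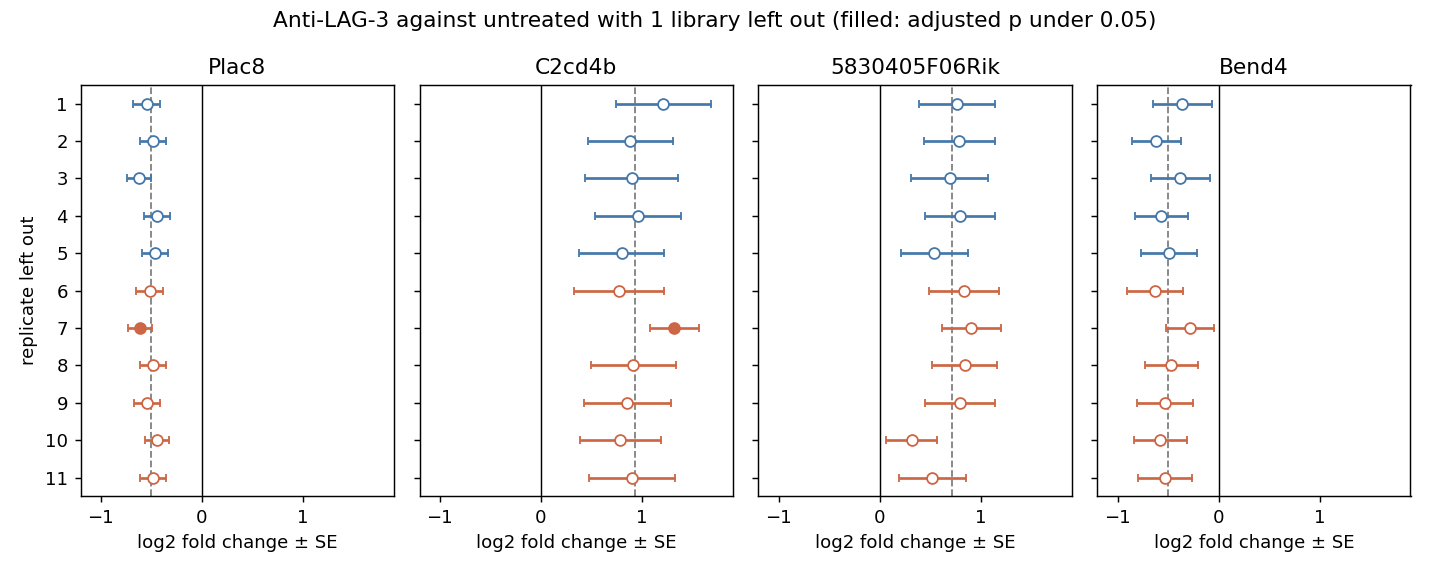
Fitted log2 fold change of anti-LAG-3 against untreated (x axis, bars are standard errors) with each library left out in turn (y axis, untreated in blue, anti-LAG-3 in orange) under the main filter, with the value of all libraries dashed. The filled points, with an adjusted p under 0.05, are C2cd4b at 1.32 and Plac8 at -0.61, both without replicate 7.

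Other genes of the same families gave little to set beside them. Of the 9 genes C2cd4a, C2cd4c, C2cd4d, Bend3, Bend5, Bend6, Bend7, Nacc1 and Nacc2, 0 passed the filter. Nacc1, a BEN domain gene of transcriptional repression, had the most reads of these, 4 to 31 in a library, and C2cd4d had none. Plac8l1 and Cnfn, relatives of Plac8, were not analysed here. Of the annotated genes of the count table next to each of the 4, Cops4, a subunit of the COP9 signalosome 5921 bases from Plac8, had 21 to 142 reads, C2cd4a up to 4, Gm43698 and Gm20072 beside Bend4 up to 2 each, and Gm43510, Gm7787, 2210010C04Rik and Gm18964 had 0.

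The genes whose levels followed each of the 4 most closely, with each group centred on its own mean, are given as a description over 11 libraries that share their depth with the gene compared. For Plac8 they were Cpne1 (Pearson r = 0.90, Spearman rho = 0.94), Strada (r = 0.89, rho = 0.84) and Eif2ak2 (r = 0.88, rho = 0.75), and without the 2 libraries farthest from the median r was 0.87, 0.74 and 0.69. For 5830405F06Rik they were Hdgf (r = 0.96, rho = 0.94), Ptpn11 (r = 0.95, rho = 0.93) and Uhrf1bp1l (r = 0.94, rho = 0.90), and without the 2 libraries farthest from the median r was 0.91, 0.88 and 0.87. For C2cd4b they were Rab24 (r = 0.96, rho = 0.85), Yrdc (r = 0.94, rho = 0.71) and Rac1 (r = 0.94, rho = 0.74), and without replicate 7 and untreated replicate 5 r fell to 0.74, 0.51 and 0.52. For Bend4 they were Use1 (r = 0.95, rho = 0.91), Med21 (r = 0.92, rho = 0.90) and Pmm2 (r = 0.90, rho = 0.89), with r of 0.92, 0.83 and 0.80 without the 2 farthest libraries. Rab24, a small GTPase gene, had 18 reads or 9.39 CPM in replicate 7 and 42.9 to 93.1 CPM in the other libraries. Yrdc had 5.22 CPM there and 21.4 to 67.4 CPM elsewhere, and Rac1 had 150 CPM (288 reads) there and 409 to 490 CPM elsewhere. The low library of C2cd4b was thus also low for these genes, which were picked for following it. Between the 4 genes themselves, r ran from -0.63 for Plac8 with Bend4 to 0.59 for C2cd4b with 5830405F06Rik.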

How the data were processed

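Bulk RNA-seq of 11 sorted T cell samples was used. Per the labels and the methods of the study, the authors trimmed reads with Cutadapt, mapped them with Bowtie2 to reference RNA of GRCm38, release 101, and deposited raw read counts per gene symbol. The submitters' processing notes name Cutadapt 4.1 and Bowtie2 2.4.5, whereas the methods name other versions of both. The libraries were made from bead-bound mRNA by template switching and PCR. Use of strand and treatment of reads matching several genes are not given in the sources used here.

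Counts were filtered with filterByExpr (minimum 10 counts at the median depth in 5 libraries, 15 in all), normalized by TMM and tested with edgeR 4.0.16 (quasi-likelihood, default legacy method, R 4.3.3) with Benjamini-Hochberg adjustment at 0.05. Standard errors were derived from the log2 fold change and its F statistic (|log2 fold change|/√F). DESeq2 1.42.0 and limma 3.58.1 were also run. The genes, lists and tests were chosen with earlier results of these data known. By rule, the genes named besides the 4 are relatives, neighbours, overlapping genes, Ccl1 and the 3 most correlated genes (log2 CPM, prior count 2). Marker genes come from the lists, and Trbc1, Trbc2, Gzma, Itgb3, B2m and mt-Co1 were added after their values were seen. Coordinates and sequences come from GENCODE M21 (GRCm38), which holds 96.3% of the symbols. Total counts of 313524 to 1901374 limit the precision of low genes.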

Additional observations from a re-analysis of the deposited data

Results flagged for a closer look

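In anti-LAG-3 replicate 7, C2cd4b had a level of 2.95 on the log2 CPM scale (prior count 2), whereas the other 5 libraries of the group lay between 5.26 and 6.06. It was picked out because the gap to its nearest neighbour was 0.743 of the range of the group, above Dixon's 95% critical value for 6 samples. The check was made on 12 sets of values, for the 4 genes, the total count and the ratio of 5830405F06Rik to the constant genes in each group, and chance picks out about 1 in 20. That rate does not hold for C2cd4b, which was chosen because it was called without this library, so this low value restates that choice. Replicate 7 is the deepest library, with 1901374 counts, and its total count was not an outlier of its group.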

How the results depend on the processing

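Besides leaving out single libraries, 27 alternatives were computed for the count of genes called at an adjusted p under 0.05, of which 22 gave 0 as in the fit reported. The exceptions were no filter (3), the bias-adjusted quasi-likelihood method with no filter (3), the likelihood ratio test with no filter (2), the fit with no filter adjusted over the genes of the main filter (5) and at least 5 counts in all (1). Apart from no filter, these were chosen after seeing the data. Leaving out 1 library gave 0 to 2 with the main filter and 0 to 11 with no filter. With no filter, the counts were 7, 5, 3, 4 and 2 without untreated replicates 1 to 5 and 3, 11, 4, 5, 0 and 2 without anti-LAG-3 replicates 6 to 11. Over 50 alternatives for Plac8 and C2cd4b, 50 for 5830405F06Rik and 49 for Bend4, which failed a minimum of 20 counts, the direction was the one reported, except for 5830405F06Rik without both anti-LAG-3 libraries 10 and 11 (-0.0346). The log2 fold change of Plac8 ranged from -0.63 to -0.20, C2cd4b from 0.26 with limma voom to 1.32, 5830405F06Rik up to 0.91 and Bend4 from -0.81 to -0.28. The libraries at or above the median total count are those with primer barcode 9, so both alternatives are 1 fit. No analysis paired by mouse was possible because the groups share no replicate number. The number that follows ExT in the library names is shared by untreated replicates 2 and 3 and anti-LAG-3 replicate 10. Another such number is shared by untreated replicates 4 and 5. This number was not used as a covariate. With primer barcode as a covariate the log2 fold changes were -0.45 for Plac8, 0.76 for C2cd4b, 0.43 for 5830405F06Rik and -0.60 for Bend4. In the libraries under 500000 counts, 4 to 20 reads of C2cd4b and 4 to 12 of Bend4 limit the precision.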
